A study of Homo sapiens with 6 samples.

Results

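Lysyl oxidases, lysyl hydroxylases and the catalytic alpha subunits of collagen prolyl 4-hydroxylase were followed in A549, a human lung adenocarcinoma cell line, after depletion of the RNA-binding protein STAU1. The 10 genes LOX, LOXL1, LOXL2, LOXL3, LOXL4, PLOD1, PLOD2, PLOD3, P4HA1 and P4HA2 were chosen by symbol, and all 10 of them are among the 30493 genes in the count table. Poly(A) RNA was sequenced from 3 libraries labelled STAU1 knockdown and from 3 libraries labelled control plasmid, and the labels name no other treatment or alteration of the A549 cells in either group. The controls are described as plasmid controls while the titles of the knockdown libraries begin with si, so the kind of knockdown reagent is not clear from the labels. Whether replicate libraries stem from separate cultures is not stated in the labels, so a p-value here reflects how far these libraries vary, and that variation may be technical only.

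Collagen is modified in steps inside and outside the cell. In the endoplasmic reticulum, prolyl 4-hydroxylases hydroxylate proline, which stabilises the triple helix, and lysyl hydroxylases hydroxylate lysine, which provides sites for glycosylation and for stable cross-links; both are iron enzymes that use 2-oxoglutarate and oxygen. After secretion, the copper enzymes of the lysyl oxidase family oxidise lysine and hydroxylysine, and the products join into cross-links of collagen and elastin. In lung adenocarcinoma these enzymes are known for stiffening the matrix around the tumour, and several of the genes are known to be induced by hypoxia.

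LOXL2, the lysyl oxidase that A549 cells expressed most, fell in knockdown libraries, while the much less abundant LOXL4 rose. Among the hydroxylases the alpha subunit gene P4HA2 and the lysyl hydroxylase gene PLOD3 rose, PLOD1 and PLOD2 fell by small amounts, and P4HA1, LOX and LOXL3 were not called. LOXL1 had too few reads to be tested. Calls were made at an adjusted p under 0.05 in edgeR's quasi-likelihood test fitted to all 17089 tested genes. Of the 9 tested members 3 were higher, 3 lower and 3 not called, where 44.1% of all tested genes were called, 22.2% higher and 21.9% lower (50.3% of the calls higher, with 69.5% under total-count scaling, 77.3% on log2(FPKM + 1) and 77.2% on log2(FPKM + 0.1)). The share of members called, 6 of 9, was thus above that of all genes, and with so few genes it is no result about the group. The groups did not overlap in CPM (read counts scaled to library totals adjusted by TMM factors) for 6 of the 9, the same 6 genes, against 51.4% of all tested genes. The median log2 fold change of the 9 was -0.10, the value of LOX, which was not called, against -0.00019 over all tested genes. The median size of the change was 0.16 against 0.18.

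Libraries held 30354219 to 35431441 counts in the knockdown group and 31458569 to 32832268 in the control group. STAU1 itself had 16.02, 15.7 and 14.6 CPM in knockdown libraries, against 120.5, 125 and 117 CPM in controls (log2 fold change -2.97, SE 0.04, edgeR adjusted p = 1.9e-34). The A549 and epithelial markers KRT8, KRT18, KRT19, EPCAM, CDH1, ALDH1A1, AKR1B10 and AKR1C1 were all expressed, with a summed level of 22416 to 22750.5 CPM in knockdown and 24808 to 25373 CPM in control libraries. They did not move together, with 3 called higher, 4 lower and 1 not called (87.5% called, against 44.1% of all tested genes). Mitochondrially encoded RNA made up 15.8% to 16.1% of counts in knockdown libraries and 17.3% to 17.9% in controls, and its part in the differences below was not tested. In bulk RNA, fewer expressing cells and less RNA per cell cannot be told apart.

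**Figure D1:**
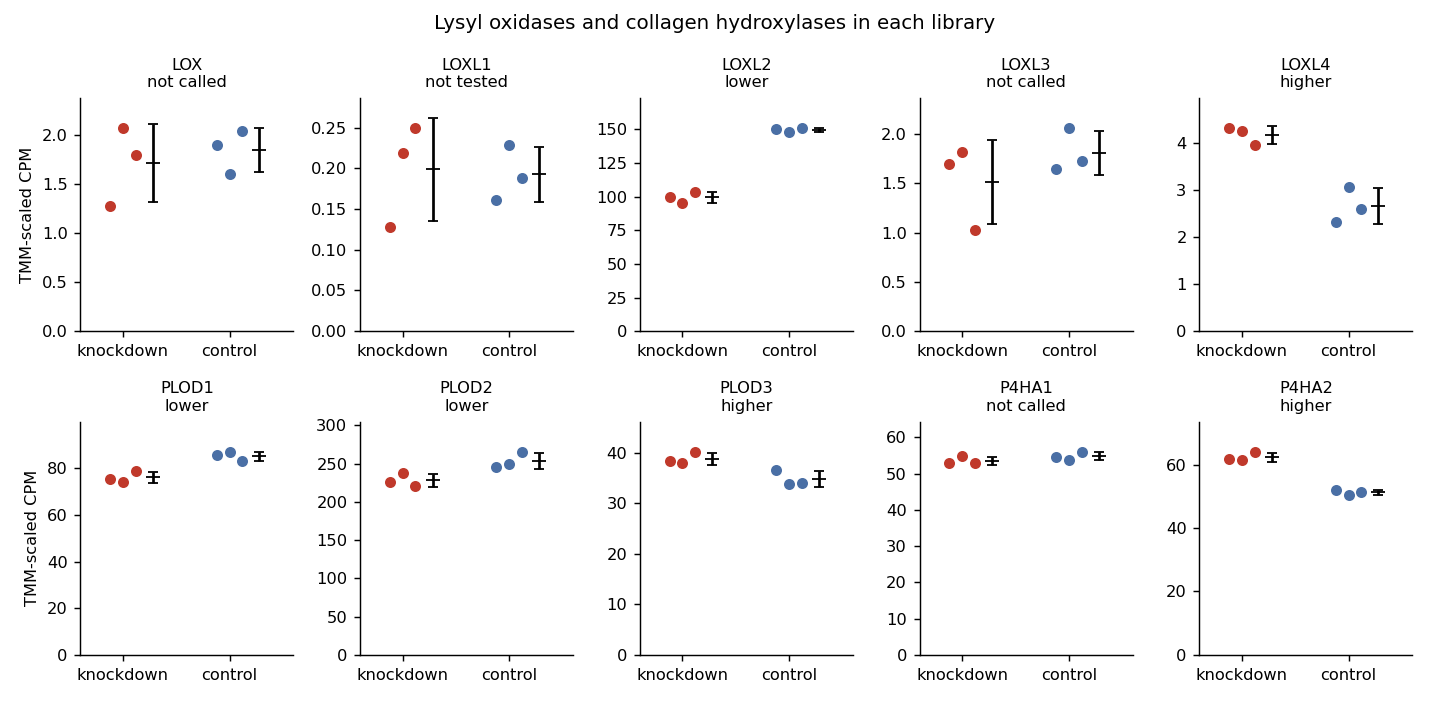
TMM-scaled CPM of each of the 10 genes on a linear axis that starts at 0, with 1 point per library (knockdown left in red, control right in blue) and the mean with its SD beside the points (n = 3 each). The groups are separate for LOXL2, LOXL4, PLOD1, PLOD2, PLOD3 and P4HA2 and overlap for LOX, LOXL1, LOXL3 and P4HA1.

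Among the lysyl oxidases, LOXL2 (ENSG00000134013.16, GRCh38 chromosome 8, 23297189 to 23425328, minus strand, GENCODE 29) encodes a secreted amine oxidase with scavenger receptor domains that acts on basement membrane collagen. Its level was 99.9, 95.4 and 103 CPM in knockdown libraries, against 150.3, 148 and 151 CPM in control libraries. Every knockdown library was thus below every control library, and the control values lay close together. LOXL2 averaged 99.5 ± 3.98 CPM in knockdown and 149.7 ± 1.42 CPM in control libraries (SD, n = 3 each), a log2 fold change of -0.59 (SE 0.03, edgeR adjusted p = 2.5e-18). The fall was found under all 17 alternative analyses and lay between -0.62 and -0.45 on the log2 scale. Of the 1188 genes with a mean CPM at or above that of LOXL2, 9 including LOXL2 itself had a log2 fold change this low or lower. LOXL2 shares 120 exonic bases with ENTPD4, a neighbouring gene on the same strand that encodes a nucleotide-hydrolysing enzyme, and ENTPD4 went the other way, with 49.4 ± 0.157 CPM in knockdown and 37.1 ± 0.386 CPM in control libraries (SD, n = 3 each). On the opposite strand, AC090197.1 shares 178 exonic bases with LOXL2 and had 46 counts over the knockdown libraries and 61 over the controls.

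LOXL4 (ENSG00000138131.4, chromosome 10, 98247690 to 98268250, minus strand), another family member with scavenger receptor domains, was expressed at a low level and moved in the opposite direction to LOXL2. Its counts were 135, 136 and 143 in knockdown libraries, against 72, 94 and 83 in control libraries. After scaling these were 4.32, 4.26 and 3.96 CPM in knockdown and 2.32, 3.07 and 2.61 CPM in control libraries, and the groups did not overlap. The difference was 1.56-fold (log2 fold change 0.65, SE 0.13, edgeR adjusted p = 1.4e-04), and it was 0.34 on the log2(FPKM + 1) scale, which compresses low values, and 0.68 on the log2(FPKM + 0.1) scale. LOXL4 was called under all 17 alternatives.

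LOX, LOXL3 and LOXL1 were near the lower end of what was measured. LOX (ENSG00000113083.15, chromosome 5, 122063195 to 122078360, minus strand), the founding enzyme of the family, had 40, 66 and 65 counts in knockdown libraries, against 59, 49 and 65 in controls. Its log2 fold change was -0.10 (SE 0.19, edgeR adjusted p = 0.69), and it was 0.060 without knockdown replicate 1, the library with the fewest LOX counts. LOXL3 (ENSG00000115318.12, chromosome 2, 74532414 to 74555690, minus strand), which also carries scavenger receptor domains, had 53, 58 and 37 counts in knockdown and 51, 63 and 55 in control libraries. Its log2 fold change was -0.28 (SE 0.20, edgeR adjusted p = 0.28), and -0.04 without knockdown replicate 3, the only library under 50 counts. Of the 4363 bases of the union of LOXL3 exons, 625 are shared with HTRA2 on the opposite strand, a more abundant gene that was called lower, at 20.6 ± 1.45 CPM in knockdown and 22.6 ± 0.518 CPM in control libraries (SD, n = 3 each; log2 fold change -0.13, edgeR adjusted p = 0.0487). LOXL3 shares 216 exonic bases with DOK1, also on the opposite strand and called lower, at 4.58 ± 0.205 CPM in knockdown and 5.90 ± 0.381 CPM in control libraries (SD, n = 3 each; log2 fold change -0.36, edgeR adjusted p = 0.0045). LOX shares 138 exonic bases with SRFBP1 on the opposite strand, which was not called and had 839 counts over the knockdown libraries and 815 over the controls. The sources used here do not give the strand setting of the counting, so reads from these bases may not be separated. LOXL1 (ENSG00000129038.16, chromosome 15, 73925989 to 73952137, plus strand), known for elastic fibre assembly, had 4, 7 and 9 counts in knockdown and 5, 7 and 6 in control libraries and was not tested. At such depth neither a difference in LOXL1 nor its absence could be shown.

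Set against gene length, LOXL2 made up most of the lysyl oxidase message in both groups. In deposited FPKM, LOXL2 took 90.0%, 88.8% and 91.0% of the sum of the 5 lysyl oxidases in knockdown replicates 1 to 3, against 94.7%, 93.7% and 94.3% in control replicates 1 to 3. LOXL4 took 6.29% ± 0.446 of that sum in knockdown and 2.79% ± 0.395 in control libraries (SD, n = 3 each). The sum itself was 16.3 ± 0.731 FPKM in knockdown and 21.7 ± 0.235 FPKM in control libraries (SD, n = 3 each). These shares describe the libraries and were not tested.

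**Figure D2:**
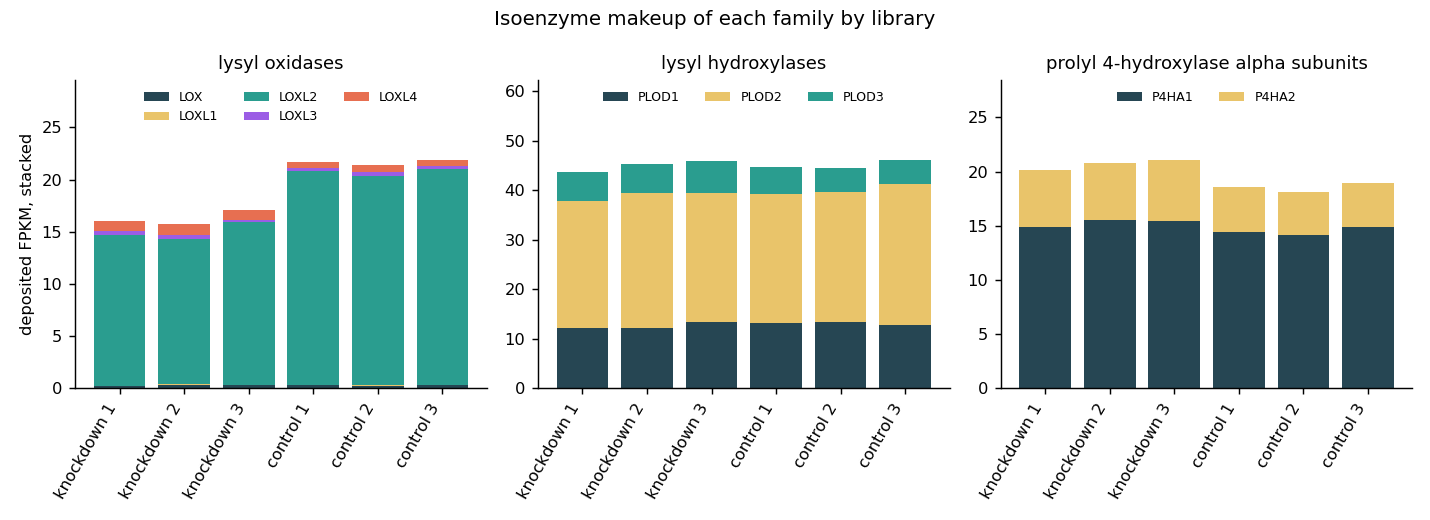
Deposited FPKM of each gene stacked by family, with 1 bar per library and the 3 knockdown libraries left of the 3 control libraries. LOXL1 is too low to be seen in most bars, and P4HA3 is not among the genes stacked. LOXL2 makes up most of each lysyl oxidase bar, the lysyl hydroxylase bars are of like height in both groups (43.6 to 45.8 FPKM in knockdown, 44.5 to 46.1 FPKM in control libraries), and P4HA2 is larger in the knockdown bars. The like height holds for FPKM only, where the median of all genes was higher in knockdown (0.05 on log2(FPKM + 1), 0.10 on log2(FPKM + 0.1)). In TMM-scaled CPM per kb of exon union, mean PLOD2 was 29.9 in knockdown and 33.1 in control libraries. On that scale PLOD1 was 14.3 and 16.0, and PLOD3 6.84 and 6.14, in these groups.

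The 3 lysyl hydroxylases changed by small amounts and not in 1 direction. PLOD2 (ENSG00000152952.12, chromosome 3, 146069440 to 146163653, minus strand), whose product hydroxylates lysine in the collagen telopeptides and so sets the type of cross-link, had the highest level of the 10 genes. It had 226, 238 and 221 CPM in knockdown libraries, against 246, 249.2 and 265 CPM in control libraries. The highest knockdown value lay just below the lowest control value. The log2 fold change of PLOD2 was -0.15 (SE 0.03, edgeR adjusted p = 2.3e-04). PLOD1 (ENSG00000083444.17, chromosome 1, 11934205 to 11975538, plus strand), which acts mainly on helical lysines and is mutated in a form of Ehlers-Danlos syndrome, had 75.2, 74.1 and 78.9 CPM in knockdown libraries, against 85.5, 86.9 and 83.1 CPM in controls. The groups were separate, with a log2 fold change of -0.16 (SE 0.03, edgeR adjusted p = 6.9e-05).

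Both of these falls depended on the scale. With limma on log2(FPKM + 1) and log2(FPKM + 0.1), PLOD1 had -0.05 on either scale, with adjusted p of 0.360 and 0.358, and PLOD2 had -0.04 on either scale, with adjusted p of 0.472 and 0.470. With total-count scaling in edgeR, PLOD2 had -0.07 with an adjusted p of 0.0520, while PLOD1 kept its call at -0.085 (adjusted p = 0.0255). TMM factors were 1.02 to 1.03 in knockdown and 0.971 to 0.977 in control libraries. The median of all genes was higher under these settings, at 0.05 on the log2(FPKM + 1) scale, 0.10 on the log2(FPKM + 0.1) scale and 0.08 with total-count scaling.

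PLOD3 (ENSG00000106397.12, chromosome 7, 101205977 to 101218420, minus strand), which encodes a lysyl hydroxylase that also transfers sugars to hydroxylysine, rose. It had 38.3, 37.9 and 40.1 CPM in knockdown libraries, against 36.6, 33.8 and 34.1 CPM in control libraries, with a log2 fold change of 0.16 (SE 0.04, edgeR adjusted p = 0.0033). It was called under all 17 alternatives, at 0.13 to 0.26. On the opposite strand, ZNHIT1, which encodes a subunit of a chromatin remodelling complex, shares 429 exonic bases with PLOD3 and rose as well, with 79.7 ± 1.66 CPM in knockdown and 72.9 ± 0.449 CPM in control libraries (SD, n = 3 each; log2 fold change 0.13, SE 0.03). The part of ZNHIT1 reads in the PLOD3 count was not tested. PLOD3 took 13.4% ± 0.496 of the FPKM summed over the 3 lysyl hydroxylases in knockdown and 11.1% ± 0.612 in control libraries, and PLOD2 took 58.5% ± 1.62 in knockdown and 59.9% ± 1.48 in control libraries (SD, n = 3 each).

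The prolyl 4-hydroxylase alpha subunits carry the active site of an enzyme that forms a tetramer with the P4HB protein, and here they differed in response. P4HA2 (ENSG00000072682.20, chromosome 5, 132191838 to 132295315, minus strand) had 61.7, 61.4 and 63.9 CPM in knockdown libraries, against 52.0, 50.5 and 51.2 CPM in control libraries. The groups were widely separated relative to their spread, and the difference was 1.22-fold (log2 fold change 0.28, SE 0.03, edgeR adjusted p = 2.2e-08), with 0.26 to 0.38 over the 17 alternatives, in all of which it was called. P4HA1 (ENSG00000122884.13, chromosome 10, 73007217 to 73096974, minus strand), the alpha subunit of the most widespread isoenzyme, had 53.0, 54.8 and 52.8 CPM in knockdown libraries, against 54.6, 53.7 and 55.9 CPM in controls. These groups overlapped, the log2 fold change was -0.03 (SE 0.04, edgeR adjusted p = 0.48), and its sign turned with total-count scaling (0.044) and on the log2(FPKM + 1) and log2(FPKM + 0.1) scales (0.072 and 0.077). In FPKM, P4HA2 took 26.2% ± 0.737 of the sum of P4HA1 and P4HA2 in knockdown and 22.2% ± 0.343 in control libraries (SD, n = 3 each). The third alpha subunit gene, P4HA3, is not in this sum. It stood above P4HA2, at 13.3 FPKM in knockdown and 6.997 FPKM in control libraries. The shares therefore hold only between P4HA1 and P4HA2, not over all alpha subunits. The antisense gene P4HA2-AS1 shares 548 exonic bases with P4HA2 and had 24, 19 and 7 counts in knockdown and 14, 16 and 13 in control libraries.

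The related genes of this complex moved the same way as P4HA2. P4HA3, the third alpha subunit gene, which was not among the 10, had 61.0, 59.3 and 60.2 CPM in knockdown libraries, against 34.7, 34.5 and 33.4 CPM in control libraries, a 1.76-fold difference (log2 fold change 0.81, SE 0.04, edgeR adjusted p = 8.2e-19) larger than that of any called member. Per length, P4HA3 stood at 13.3 ± 0.317 FPKM in knockdown and 6.997 ± 0.123 FPKM in control libraries, and P4HA1 at 15.2 ± 0.354 FPKM in knockdown and 14.5 ± 0.367 FPKM in control libraries (SD, n = 3 each). P4HB, the disulfide isomerase that is the beta subunit, had 691 ± 21.8 CPM in knockdown and 634 ± 4.91 CPM in control libraries (SD, n = 3 each), a log2 fold change of 0.12 (SE 0.02, edgeR adjusted p = 1.0e-05).

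**Figure D3:**
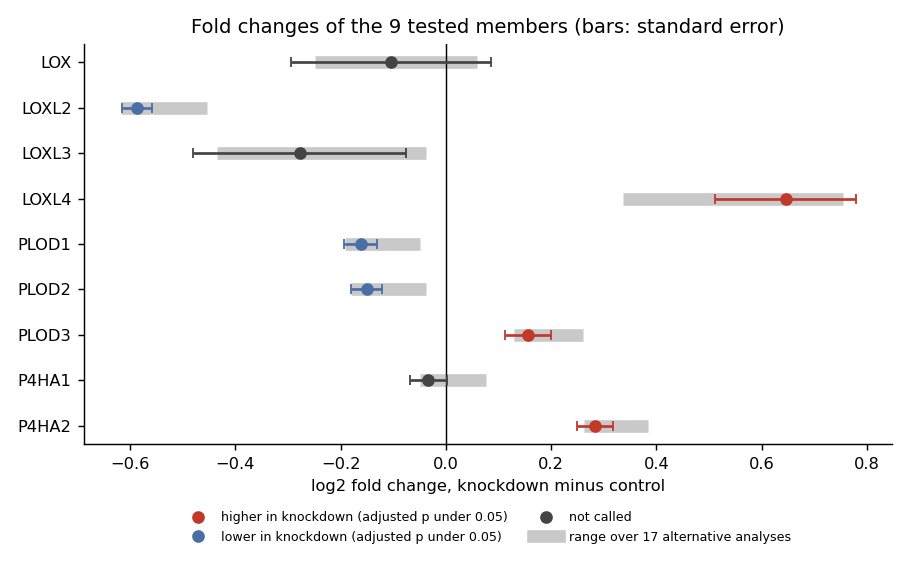
Log2 fold change (knockdown minus control, x axis) of the 9 tested members with its standard error; red marks genes higher in knockdown, blue genes lower and dark grey genes not called, and the light bars span the values under the 17 alternative analyses. LOXL2 at -0.59 and LOXL4 at 0.65 are the extremes, and only the light bars of LOX and P4HA1 cross 0.

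Ordered by deposited FPKM, a level per gene length, the knockdown libraries had PLOD2 first (26.2 ± 0.831), then P4HA1 (15.2 ± 0.354), LOXL2 (14.7 ± 0.831), PLOD1 (12.6 ± 0.668), PLOD3 (6.03 ± 0.306), P4HA2 (5.42 ± 0.231), LOXL4 (1.02 ± 0.0289), LOXL3 (0.293 ± 0.0814), LOX (0.270 ± 0.0624) and LOXL1 (0.0467 ± 0.0153; SD, n = 3 each). In control libraries LOXL2 stood above P4HA1, at 20.4 ± 0.295 against 14.5 ± 0.367 FPKM (SD, n = 3 each), and the other genes kept their places on this scale. In knockdown libraries the single-library values of P4HA1 (14.84 to 15.49 FPKM) lay within the range of LOXL2 (13.94 to 15.57 FPKM), so their order there is not beyond the spread, and the same holds for LOXL3 and LOX in knockdown libraries. The gene lengths behind the deposited FPKM are not stated in the labels or the file headers. Reads per unit of FPKM, which scale with that length, were 1.90 times as many for P4HA2 as for PLOD1, whereas the ratio of their exon unions in GENCODE 29 is 1.598, so the level of P4HA2 depends on the gene model. Its place does too: in CPM per kb of exon union, P4HA2 lay above PLOD3 in knockdown libraries (7.33 ± 0.163 against 6.84 ± 0.206), and in control libraries their values overlapped (6.03 ± 0.0843 for P4HA2 and 6.14 ± 0.275 for PLOD3; SD, n = 3 each).

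**Figure D4:**
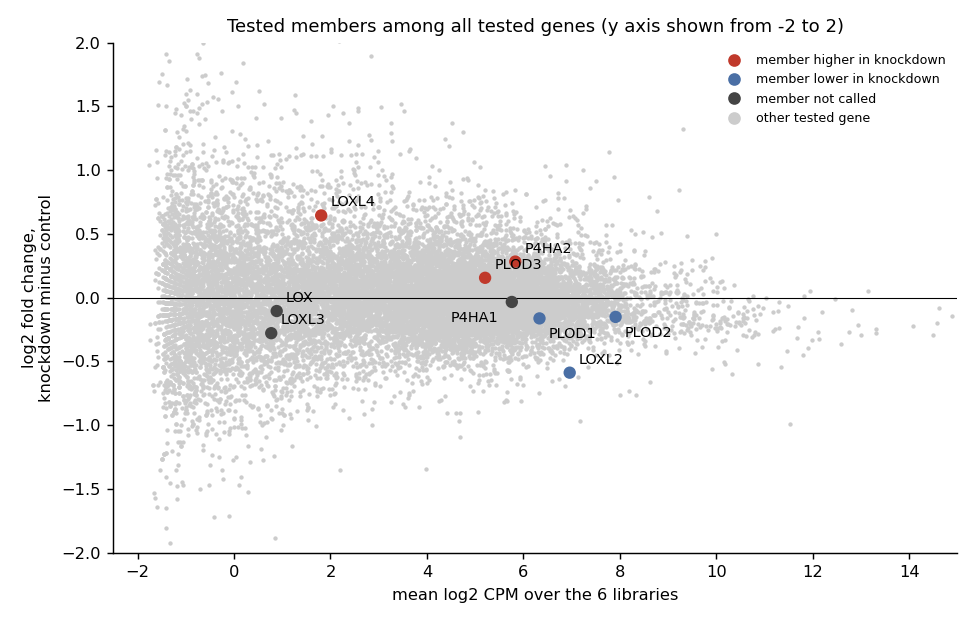
Mean log2 CPM over the 6 libraries (x axis) and log2 fold change, knockdown minus control (y axis, cut so that STAU1 and other extreme genes fall outside it), for all tested genes in light grey, with the 9 tested members in colour by call. LOXL2 lies at the lower edge of genes of its abundance, and LOXL4 is among the less abundant members.

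The genes whose profiles over the 6 libraries were closest to the leading member of each class were found by the root-mean-square distance of log2 CPM, each gene centred on its control mean, among the 10122 genes whose mean log2 CPM reached 3. For LOXL2 these were ATP6V0E2, which encodes a proton pump subunit, at 0.0172, S100A6, a calcium-binding protein gene, at 0.0266 and KRT7, a simple epithelial keratin gene, at 0.0280, where the median distance of all genes was 0.415. For P4HA2 they were CNTNAP3B at 0.0133, whose reads may be shared with near-identical copies, TACC2, a centrosomal protein gene, at 0.0156 and the kinase gene AKT1 at 0.0180, where the median was 0.220. The log2 fold changes of the first group were -0.59, -0.56 and -0.60, beside -0.59 for LOXL2, and those of the second 0.29, 0.27 and 0.28, beside 0.28 for P4HA2. Because these genes were chosen by profiles that include the difference between the groups, short distances and like fold changes follow from the choice.

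Among other collagen-modifying enzymes and chaperones, 9 of 23 tested genes were higher, 2 lower and 12 not called (median 0.06 on the log2 scale). The share called, 47.8%, is near the 44.1% of all tested genes and is no result about this list. Beside P4HA3, the leading genes by adjusted p were BMP1, the procollagen C-proteinase that also activates pro-lysyl oxidase, and P3H4, a scaffold of the helical lysyl hydroxylation complex. BMP1 had 89.9 ± 2.07 CPM in knockdown and 69.0 ± 1.17 CPM in control libraries (SD, n = 3 each), a log2 fold change of 0.38 (SE 0.03, edgeR adjusted p = 1.9e-12). P3H4 had 38.8 ± 1.39 CPM in knockdown and 49.6 ± 1.93 CPM in control libraries (SD, n = 3 each), a log2 fold change of -0.35 (SE 0.04, edgeR adjusted p = 6.1e-09). COLGALT1, which adds galactose to hydroxylysine, had -0.02 (SE 0.03, edgeR adjusted p = 0.63), a sign that turned with total-count scaling (0.056), on the FPKM scales and without control replicate 3.

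The substrates of these enzymes were mostly higher. Of 22 tested collagen chain genes 15 rose, 0 fell and 7 were not called in edgeR, with a median of 0.48 and a share called of 68.2%, against 44.1% of all tested genes; at an unadjusted p under 0.05 the counts were 16 and 1, and DESeq2 and limma-voom also called 0 lower. There was 1 lower call without knockdown replicate 3 and 1 without control replicate 1. COL5A2, which forms fibrils with type I collagen, had 173 ± 0.510 CPM in knockdown and 118 ± 1.08 CPM in control libraries, and the basement membrane chain COL4A4 had 42.1 ± 0.877 and 24.4 ± 0.777 CPM in these groups (SD, n = 3 each). COL1A1 stood at 11.98 ± 0.225 CPM in knockdown and 4.26 ± 0.157 CPM in control libraries (SD, n = 3 each), and its partner chain COL1A2 was not analysed here.

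Of 16 tested genes of elastic fibres and their matrix partners 7 rose, 0 fell and 9 were not called in edgeR (median 0.19, share called 43.8%, near the 44.1% of all tested genes); 0 were lower at an unadjusted p under 0.05, with DESeq2 and with limma-voom, and 2 were lower without knockdown replicate 3. LTBP1, which binds latent TGF-beta, had 45.3 ± 1.23 CPM in knockdown and 22.3 ± 1.78 CPM in control libraries, the fibrillin gene FBN1 had 11.2 ± 0.181 and 5.79 ± 0.712 CPM, and fibronectin FN1 had 1068 ± 10.8 and 863 ± 0.934 CPM in these groups (SD, n = 3 each). The elastin gene ELN, a classical lysyl oxidase substrate, was low at 1.30 ± 0.434 CPM in knockdown and 1.72 ± 0.239 CPM in control libraries (SD, n = 3 each; log2 fold change -0.38, edgeR adjusted p = 0.15), and without knockdown replicate 3 it had -0.68 with an adjusted p of 0.0158.

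The summed level of fibroblast markers was higher in knockdown libraries, and LUM and THY1 made up most of it. Of 7 fibroblast markers 6 were analysed, 4 of them under 1 CPM in every library, and their sum was 15.1 to 16.9 CPM in knockdown and 10.1 to 10.8 CPM in control libraries. LUM had 9.91 ± 0.637 CPM in knockdown and 6.05 ± 0.304 CPM in control libraries, and THY1 5.15 ± 0.707 and 3.64 ± 0.111 CPM (SD, n = 3 each). Of the 4 under 1 CPM, DCN and PDGFRB had lower means in knockdown libraries, and COL3A1 and PDGFRA higher means. PDGFRA was called higher (edgeR adjusted p = 0.0497) though its groups overlapped, and COL3A1 was not called. Of the 5 endothelial markers 4 were under 1 CPM in every library, with sums of 1.77 to 2.62 CPM in knockdown and 1.10 to 1.34 CPM in control libraries. CDH5 made up most of the endothelial sum, at 1.64 ± 0.132 CPM in knockdown and 0.802 ± 0.0547 CPM in control libraries (SD, n = 3 each). It was called higher (log2 fold change 1.03, edgeR adjusted p = 1.9e-04). The 3 immune markers analysed summed to 16.6 to 19.2 CPM in knockdown and 13.7 to 14.7 CPM in control libraries. CD14 made up most of the immune sum, at 15.9 ± 1.25 CPM in knockdown and 12.7 ± 0.329 CPM in control libraries (SD, n = 3 each). LYZ was slightly higher and CD79A slightly lower in knockdown libraries, and neither was called. Whether such cells were present, and their part in these results, was not tested.

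**Figure D5:**
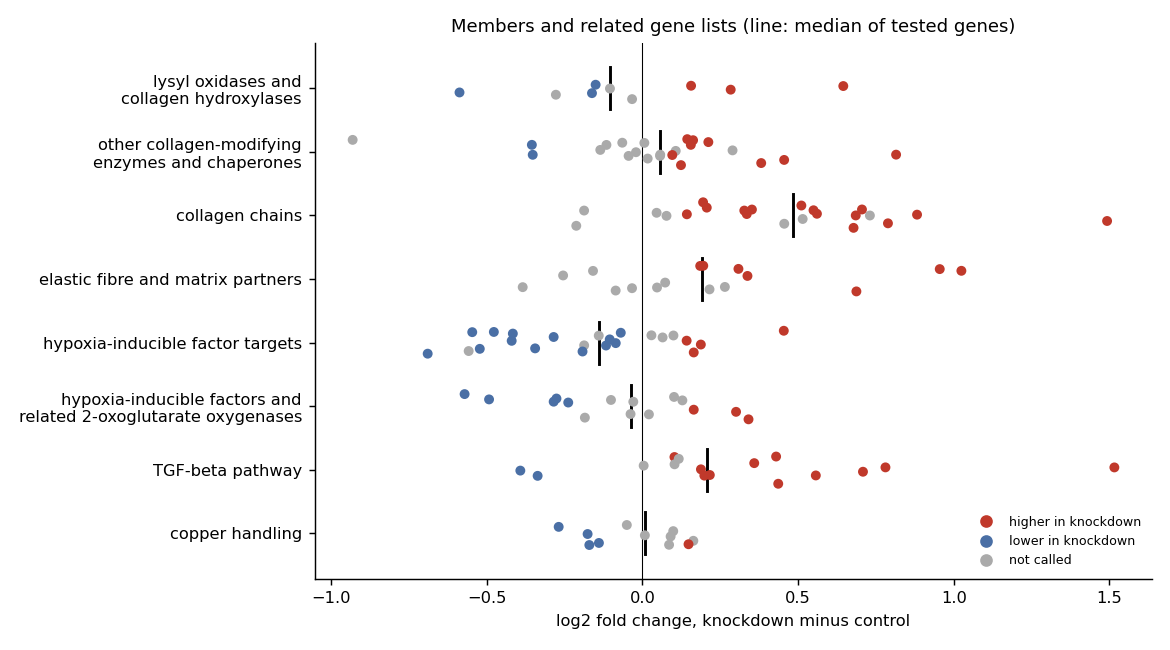
Log2 fold change, knockdown minus control (x axis), of every tested gene in the lysyl oxidase and hydroxylase group and in 7 related lists (rows), with red points higher, blue points lower and grey points not called; vertical lines are medians. The median is 0.48 for collagen chains and -0.10 for the lysyl oxidases and hydroxylases, where it is the value of LOX, which was not called. EGLN1 and EGLN3 appear in both hypoxia-inducible factor rows.

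In the TGF-beta pathway, which is known to induce matrix genes, 11 of 16 tested genes were higher, 2 lower and 3 not called (median 0.21; 81.2% called, against 44.1% of all tested genes). The smooth muscle actin gene ACTA2, whose reads may be shared with other actins, had 16.02 ± 0.762 CPM in knockdown and 5.61 ± 0.719 CPM in control libraries. The ligand gene TGFB2 had 52.9 ± 1.13 CPM in knockdown and 32.4 ± 1.38 CPM in control libraries, and ID1, an inhibitor of differentiation, had 139 ± 3.11 and 183 ± 1.17 CPM in these groups (SD, n = 3 each). Of 11 tested genes of copper handling, which supplies the lysyl oxidase cofactor, 1 was higher, 4 lower and 6 not called (median 0.0079), and the share called, 45.5%, is near that of all tested genes. The higher count was 3 under total-count scaling and 3 on each FPKM scale, and 0 without knockdown replicate 2 or control replicate 2, and the lower count was 0 on either FPKM scale. The copper importer gene SLC31A1 had -0.17, COX17, a copper chaperone of cytochrome oxidase, -0.18 and SCO1, an assembly factor of the same enzyme, -0.14. All 3 calls were lost on both FPKM scales, and that of SCO1 also with total-count scaling (adjusted p = 0.101).

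Hypoxia-inducible factors bind the core motif ACGTG or GCGTG, and LOX, LOXL2, PLOD2, P4HA1 and P4HA2 are known targets. Of 23 other target genes tested, 13 were lower, 4 higher and 6 not called (median -0.14; 73.9% called, against 44.1% of all tested genes), but 8 were lower under total-count scaling and 7 on each FPKM scale. The leading genes were the glycolytic genes LDHA at -0.55 (SE 0.02), PGK1 at -0.52 (SE 0.02) and ENO1 at -0.42 (SE 0.02), all of which have pseudogenes that may share reads. In this company LOXL2 and PLOD2 were lower, P4HA2 was higher, and LOX and P4HA1 were not called. Of the 15 tested genes of the factors themselves and of related 2-oxoglutarate oxygenases 3 were higher, 5 lower and 7 not called (median -0.04; 53.3% called). EGLN1, called higher, and EGLN3, called lower, are in both of these lists and so are counted in each. HIF1AN, the asparaginyl hydroxylase that restrains the factors, had 41.4 ± 0.723 CPM in knockdown and 61.5 ± 2.82 CPM in control libraries, the aspartyl hydroxylase gene ASPH had 1012 ± 4.94 and 1193 ± 16.2 CPM, and EPAS1, the HIF-2 alpha gene, had 165 ± 1.94 and 131 ± 1.26 CPM in these groups (SD, n = 3 each). HIF1A, named here after its values were seen, had 503 ± 13.01 CPM in knockdown and 609 ± 21.01 CPM in control libraries (SD, n = 3 each).

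RefSeq promoter windows (GRCh38.p14, 250 bases before to 50 after a start) were matched by symbol for 9 of the 10 genes, all but LOXL2, whose promoter was not searched, with 12 windows in all. The motif ACGTG, on either strand, was in 5 of the 12 windows, against 21.4% of all 35116 windows, and GCGTG in 5, against 36.5%; either motif was in 7, against 48.4%. Of the 5 windows with ACGTG 3 belong to LOX, and 2 of these overlap and hold the same match, so the share of windows counts that site more than once. By gene, ACGTG was in windows of 3 of the 9, GCGTG of 4 and either motif of 5. In CACGTG the motif counts on both strands. The genes with ACGTG were LOX and P4HA1, which were not called, and PLOD2, which was lower. These 3 are shown with the window of P4HA2, which was higher and holds neither motif. Each line runs from 210 bases before the start to the base before it, 5′ to 3′ on the gene's strand, with ACGTG or its reverse complement in capitals.
LOX, chr5:122078260-122078469, minus strand: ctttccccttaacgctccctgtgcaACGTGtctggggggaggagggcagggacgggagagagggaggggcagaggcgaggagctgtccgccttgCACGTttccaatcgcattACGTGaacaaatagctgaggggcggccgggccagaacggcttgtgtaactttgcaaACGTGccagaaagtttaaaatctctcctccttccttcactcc
PLOD2, chr3:146161185-146161394, minus strand: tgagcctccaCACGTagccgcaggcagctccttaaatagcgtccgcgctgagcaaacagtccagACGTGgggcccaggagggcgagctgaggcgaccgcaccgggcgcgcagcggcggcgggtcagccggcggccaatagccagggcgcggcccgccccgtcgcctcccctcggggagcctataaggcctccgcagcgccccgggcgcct
P4HA1, chr10:73096867-73097076, minus strand: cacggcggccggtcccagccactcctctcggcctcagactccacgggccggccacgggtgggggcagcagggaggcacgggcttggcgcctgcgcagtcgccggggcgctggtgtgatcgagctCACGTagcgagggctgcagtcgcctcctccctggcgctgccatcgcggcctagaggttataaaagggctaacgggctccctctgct
P4HA2, chr5:132227092-132227301, minus strand: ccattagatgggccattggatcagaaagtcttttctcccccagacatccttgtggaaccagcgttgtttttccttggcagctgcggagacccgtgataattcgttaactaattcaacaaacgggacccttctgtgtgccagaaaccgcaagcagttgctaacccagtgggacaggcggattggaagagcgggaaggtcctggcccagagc
The LOX window holds 4 matches, which begin 185, 116, 98 and 42 bases before the start, the PLOD2 window 2, at 200 and 146, and the P4HA1 window 1, at 86. A match describes these letters only. The 2 further windows of LOX overlap and share 1 match. In GENCODE 29 the gene models of both PLOD2 and P4HA2 extend upstream of the windows shown.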

How the data were processed

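Members were found by symbol in the authors' deposited table of read counts per gene, whole numbers in 1 column for each library. The deposited FPKM values (2 decimals) served for levels per length. HISAT2, DESeq2 and the build GRCh38 are named, per the submitters' processing notes; the sources used here do not give the counting tool, annotation release or strand setting, and the kit was directional per the labels' protocols. Members, lists and tests were chosen with earlier results of these data known. Named genes were the members, STAU1, the 3 smallest adjusted p of each list, fixed partners (P4HB, COLGALT1, COL1A1, ELN) and the closest profiles; exonic neighbours, HIF1A, EGLN1 and EGLN3 were added after their values were seen.

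Genes passing filterByExpr (minimum count 10) were normalized by TMM and compared in edgeR 4.0.16 (quasi-likelihood, robust; R 4.3.3) with Benjamini-Hochberg adjustment over 17089 genes. Standard errors were obtained by dividing each log2 fold change by the root of its F statistic. Replicate pairs differed beyond sampling noise (chi-square per degree of freedom 1.78 to 2.88), so all 6 libraries counted separately; counting precision is limited mainly for members under 150 counts. Scripts were tested on simulated data. Alternatives were 3 other scalings (RLE, upper quartile, total count), no filter, 1 CPM in 3 libraries as filter, edgeR's legacy test, DESeq2 1.42.0, limma-voom and limma-trend on log2 FPKM (limma 3.58.1), a replicate block and each library left out. Coordinates and exon unions are from GENCODE 29, which matched 96.9% of identifiers.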

Additional observations from a re-analysis of the deposited data

How the results depend on the processing

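Over 17 alternatives, the calls and directions of LOXL2, LOXL4, PLOD3 and P4HA2 held in every one, and the 6 called members were called in all 6 analyses that left out a library. PLOD1 and PLOD2 lost their calls as given above, so that members lower numbered 1 on either FPKM scale. Genes lower in knockdown, 3741 in the main analysis, numbered 2398 under total-count scaling, 1552 on log2(FPKM + 1) and 1554 on log2(FPKM + 0.1). The cause was not tested.

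Log2 fold changes of uncalled genes that turned sign were 0.044, 0.072 and 0.077 for P4HA1 under total-count scaling, log2(FPKM + 1) and log2(FPKM + 0.1), and 0.056, 0.086 and 0.091 for COLGALT1 under the same 3 settings. With a library left out, the LOX log2 fold change was -0.25 to 0.060 (0.060 without knockdown replicate 1) and the COLGALT1 log2 fold change -0.054 to 0.0083 (0.0083 without control replicate 3). Lower counts of hypoxia-inducible factor targets were 8, 7 and 7 under these 3 settings; copper handling had 3 higher under each of them and 0 lower on the FPKM scales. Collagen chains had 1 lower with edgeR's legacy test and with the replicate block. With a library left out, lower collagen chains numbered 0 to 1, lower elastic fibre genes 0 to 2 and higher copper genes 0 to 1. With CPM per kb of exon union, P4HA1 took 70.2% of the sum of P4HA1 and P4HA2 in knockdown and 74.6% in control libraries, against 73.8% and 77.8% in FPKM.

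Same-numbered libraries deviated together only weakly (r = 0.07, 0.04 and 0.15), which does not pair them, and control replicate 2 correlated more with knockdown replicate 1 than with its own number. With the replicate block 3811 genes were higher and 3831 lower, and no member's call changed. Depth limits LOX, LOXL1 and LOXL3.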
